A study of Mus musculus with 18 samples.

Results

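Immediate early genes are switched on within minutes of a stimulus, from transcription factors already present in the cell and without new protein synthesis. The 10 described here were chosen by name, as Fos, Fosb, Jun, Junb, Jund, Egr1, Egr2, Atf3, Ier2 and Nr4a1, and are 10 of the 55487 genes in the count table. All of them were found in the table, and 9 had enough reads to be tested in at least 1 comparison. They were followed in flow-sorted cells of the mouse retina, as microglia (CD11b+, DAPI-) and as the remaining cells (CD11b-, DAPI-), called retina below. Microglia and related myeloid cells carry CD11b on their surface, and DAPI stains dead cells. Control mice were Bmal1f/f, in which the clock gene Bmal1 is floxed but intact, and knockout mice were Bmal1-mg/-mg, in which Bmal1 was removed from microglia. There were 18 libraries, 4 of controls and 5 of knockouts in each fraction. The driver of the deletion, the age and sex of the mice, the time of day and any pooling of animals are not given in the sources used here.

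Fos and Fosb encode FOS proteins and Jun, Junb and Jund encode JUN proteins, which pair to form the transcription factor AP-1. Atf3 encodes a related, stress-induced factor that often represses transcription, Egr1 and Egr2 encode zinc finger factors, Nr4a1 encodes the orphan nuclear receptor NUR77, and Ier2 encodes a small nuclear protein of the same early response. MAP kinase signals reach these genes through serum response factor at CArG boxes and through the factor CREB at cAMP response elements. In neurons they follow electrical activity, and in microglia they are also known to be induced by enzymatic dissociation and sorting, so that they report on the handling of the cells as well as on their state.

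The sequence upstream of the gene bears on this input, and it is shown for 3 of the 4 genes whose retina levels separated the genotypes, with Jun and Junb, the most abundant in microglia, beside them. Windows of the RefSeq promoter table, on the build GRCm38.p6, were taken for 8 of the 10 genes, 12 windows in all. Egr1 and Ier2 were not examined. Each line below gives the 250 bases before the annotated transcript start, 5′ to 3′ on the strand of the gene. Capitals mark TGACG or its reverse complement CGTCA, the core of a cAMP response element, and in Jun the longer TGACNTCA, which differs from a whole element at 1 free base.
Fos: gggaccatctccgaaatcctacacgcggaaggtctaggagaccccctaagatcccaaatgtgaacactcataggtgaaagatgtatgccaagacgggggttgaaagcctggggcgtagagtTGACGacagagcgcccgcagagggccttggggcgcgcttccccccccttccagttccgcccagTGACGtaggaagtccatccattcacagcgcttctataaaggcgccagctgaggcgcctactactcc
Nr4a1: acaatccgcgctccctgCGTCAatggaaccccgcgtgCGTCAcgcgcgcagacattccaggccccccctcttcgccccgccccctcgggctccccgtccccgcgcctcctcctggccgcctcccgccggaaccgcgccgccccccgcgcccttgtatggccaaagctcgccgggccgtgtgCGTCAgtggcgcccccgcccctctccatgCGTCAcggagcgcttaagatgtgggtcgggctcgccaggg
Atf3: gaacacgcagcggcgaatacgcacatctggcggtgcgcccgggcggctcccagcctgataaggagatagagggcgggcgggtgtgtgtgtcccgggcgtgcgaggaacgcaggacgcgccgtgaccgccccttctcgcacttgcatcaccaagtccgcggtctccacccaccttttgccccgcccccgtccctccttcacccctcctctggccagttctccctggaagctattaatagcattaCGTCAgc
Jun: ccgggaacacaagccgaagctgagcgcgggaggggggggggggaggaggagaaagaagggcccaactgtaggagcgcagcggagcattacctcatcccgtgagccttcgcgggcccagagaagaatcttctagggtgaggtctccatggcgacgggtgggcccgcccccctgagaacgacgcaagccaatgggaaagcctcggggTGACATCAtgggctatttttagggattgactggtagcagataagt
Junb: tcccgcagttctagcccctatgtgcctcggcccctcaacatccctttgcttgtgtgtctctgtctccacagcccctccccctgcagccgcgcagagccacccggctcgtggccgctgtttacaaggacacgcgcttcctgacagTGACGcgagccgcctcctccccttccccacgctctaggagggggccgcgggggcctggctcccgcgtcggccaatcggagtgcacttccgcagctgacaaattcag

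The Fos window lies at chr12:85473640-85473889 on the plus strand, directly before the first exon. Its cores begin at -129 and -66 from the start, and a TATA box (TATAAA) begins at -33. The Nr4a1 window, at chr15:101266596-101266845 on the plus strand, lies inside the annotated span of the gene, before a start downstream of the outermost one, and holds 4 cores, beginning at -233, -213, -69 and -40. At least 4 cores occurred in 0.137% of all 32851 windows of this length in the table, at least 2 in 3.9% and at least 1 in 17.8%, counting both strands. The Atf3 window, at chr1:191183334-191183583 on the minus strand, also lies inside the gene's span and overlaps an annotated exon by 7 bases; its core begins at -7. The Jun window, at chr4:95052223-95052472 on the minus strand, has no core, and its TGACNTCA runs from -45 to -38, a motif found in 7.49% of windows. Junb, at chr8:84978749-84978998 on the minus strand, has a core beginning at -106. Whole elements (TGACGTCA) were in 1.55% of windows and AP-1 sites (TGANTCA) in 6.75%, and neither was in a window of these genes. A CArG box was found only in windows of Egr2 and in 1.47% of all windows, an EGR site (GCGNGGGCG) in Fosb and Nr4a1 and in 4.7% of all, and the E-box CACGTG, the sequence that BMAL1 and its partner CLOCK bind, in a window of Egr2 and in 6.02% of all. Cores are contained in whole elements. These matches describe letters in the windows, and no binding was measured.

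**Figure D1:**
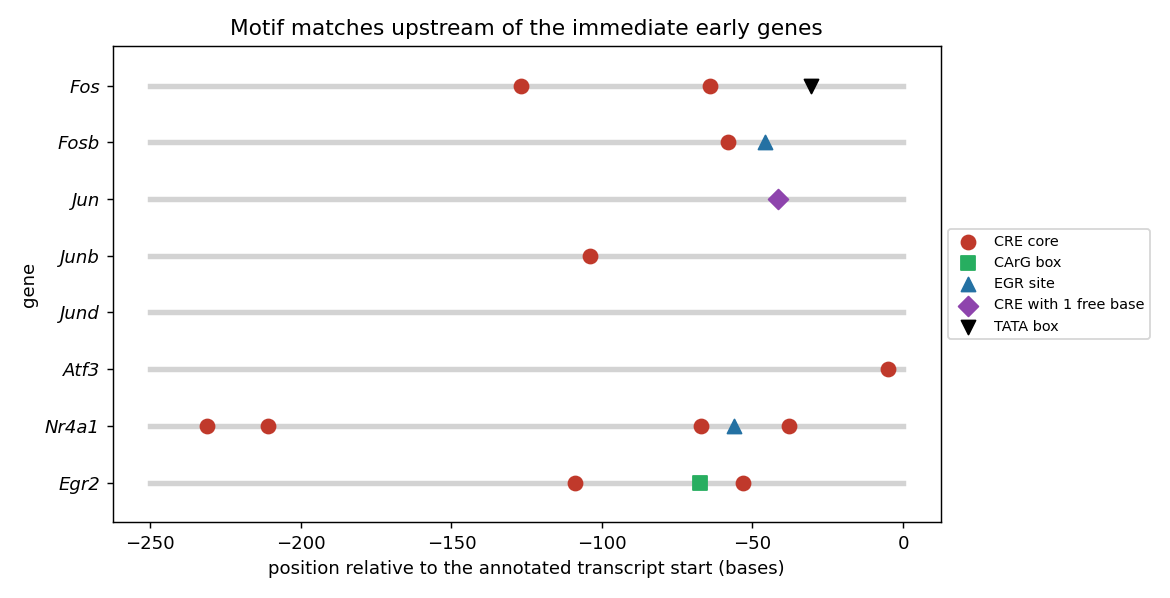
Motif matches in the 250 bases before the annotated start of 8 genes, by distance from the start in bases. Each symbol is the centre of a match on either strand, and for Egr2, which has several starts, 1 window is drawn. Nr4a1 has 4 cores, Fos and Egr2 have 2 each, and Jund has no match. The Jund window ends at base 70697738 of chromosome 8, upstream of the gene start at 70698949 in GENCODE M21.

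Library totals lay between 32277156 and 47563119 counts, and 3 counts were worth 0.0631 to 0.0929 CPM (counts scaled to the size of the library). No pair of libraries was identical. The fractions matched their labels: 16 microglial genes summed to between 71067 and 78455 CPM in microglia libraries and to at most 0.0358% of the lowest of these in retina libraries. Of these 16, 9 were higher in knockout microglia, and those that passed the test named below were Cx3cr1 (lower) and C1qc (higher). Rod genes summed to between 6134 and 14284 CPM in microglia libraries, against 136005 to 251366 CPM in retina. The targeted gene, listed as Arntl, ran from 9.90 to 27 CPM in control and from 2.10 to 24.1 CPM in knockout microglia, and from 94.6 to 137 and from 80.02 to 124 CPM in control and knockout retina. These ranges overlap, and as the deleted part of the gene is not given, they check the genotype of no library. Microglia libraries had counts for 18654 to 19363 genes in controls and 17343 to 18438 in knockouts, and retina libraries for 16510 to 18715 and 18761 to 19713. Whether each numbered sample was a different mouse is not stated, and p-values refer to the spread between samples only. In such bulk samples, fewer cells of a type and less RNA per cell cannot be told apart.

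The largest differences of these genes were between the fractions. In control mice, 7 of the 9 genes tested were higher in microglia than in retina at a Benjamini-Hochberg adjusted p under 0.05 (edgeR's quasi-likelihood test, used for all adjusted p-values below unless another tool is named), and none was lower. Of all genes tested, 22.8% were higher in microglia by that rule. The 10 genes together made up 0.156 to 0.248% of the reads in control microglia and 0.0189 to 0.0329% in control retina, and in summed level 1583 to 2544 CPM against 172 to 292 CPM. In knockouts the sums were 1585 to 2264 CPM in microglia and 304 to 510 CPM in retina, so no library of either fraction reached the range of the other.

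Junb (ENSMUSG00000052837, chromosome 8, 84974484 to 84978718, minus strand) had the greatest difference with a firm level in both fractions. Its CPM were 673, 684, 615 and 501 in control microglia replicates 1 to 4, and 17.1, 13.7, 8.65 and 18.4 in control retina. The groups lie far apart, and the log2 difference was 5.37 (SE 0.28, adjusted p = 5.28e-06), a 41.5-fold higher level in microglia. In knockouts Junb had 559, 738, 625, 564 and 474 CPM in microglia and 26.9, 40.0, 25.2, 12.2 and 20.7 CPM in retina (log2 difference 4.49, SE 0.31, adjusted p = 1.39e-06).

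Jun (ENSMUSG00000052684, chromosome 4, 95049034 to 95052222, minus strand) had 860.4, 778, 682 and 624 CPM in control microglia and 58.1, 91.5, 33.1 and 73.5 CPM in control retina. That is a log2 difference of 3.48 (SE 0.32, adjusted p = 7.97e-05), and in knockouts it was 2.98 (SE 0.25, adjusted p = 5.54e-06). Jund, the JUN gene known for a steady rather than an induced level, differed least among the called genes in controls, with means of 69.3 ± 5.44 CPM in microglia and 28.6 ± 6.98 CPM in retina (SD, n = 4 each; log2 difference 1.23, SE 0.21, edgeR adjusted p = 0.00225). Within control microglia the Jund libraries lay between 64.3 and 74.7 CPM, a coefficient of variation of 7.85%, and those of Jun and Junb varied by 14.2% and 13.6%. In control microglia the JUN genes were thus even across libraries, while Fos varied by 69.2%, Egr1 by 60.8% and Atf3 by 55.2%. In control retina this did not hold for Jun, which varied by 38.7%, where Fos varied by 32.6%.

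Fos (ENSMUSG00000021250, chromosome 12, 85473890 to 85477273, plus strand) had 308, 158, 71.4 and 87.5 CPM in control microglia and 8.12, 19.5, 15.3 and 16.8 CPM in control retina (log2 difference 3.34, SE 0.53, adjusted p = 0.00148). Control replicate 1 was 4.32 times control replicate 3 in microglia, a wider spread than in any other called gene of the family there. Egr1 (ENSMUSG00000038418, chromosome 18, 34859823 to 34864984, plus strand) followed with 297, 222, 85.0 and 86.2 CPM against 13.8, 15.6, 5.52 and 33.6 CPM (log2 difference 3.28, SE 0.66, adjusted p = 0.00471). Ier2 had 214, 262, 118 and 131 CPM against 18.8, 38.2, 68.2 and 57.4 CPM (log2 difference 1.94, SE 0.44, adjusted p = 0.0086). In all 3 genes, control microglia replicates 1 and 2 were the high pair and replicates 3 and 4 the low pair, and every microglia library was above every retina library. Of the 9 genes tested, 7 had such separate ranges in controls, as did 28.8% of all genes, and in knockouts 5 did, with 22.9% of all genes. Markers of blood monocytes, border macrophages and granulocytes split the same control libraries: 18 such genes summed to 534, 390.2, 87.0 and 90.2 CPM in control microglia replicates 1 to 4. In knockout microglia replicates 1 to 5 they summed to 540, 367, 664, 204 and 496 CPM, with Cd209f at 0 in every microglia library. Knockout replicate 3 had the highest sum, Fos, Egr1 and Ier2 of its group. Knockout replicate 1, however, had Egr1 at only 79.7 CPM and Ier2 at 122 CPM. The sum of 12 Müller glia and astrocyte genes, which include Apoe and other genes that microglia express, was 7431, 3706, 2165 and 2868 CPM in the controls and 4253 to 6496 CPM in knockouts. Most of that sum was Apoe, at 1206 to 6614 CPM in control and 3474 to 5788 CPM in knockout microglia. Of the 12 genes, 4 were higher in knockouts (median log2 change -0.28). The part of these marker lists in the spread of Fos, Egr1 and Ier2 was not tested.

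Fosb and Egr2 were scarce. Fosb had 90, 193, 187 and 95 reads in control microglia, 2.16 to 4.98 CPM, against 10 reads over all 4 control retina libraries (log2 difference 5.96, SE 0.75, adjusted p = 0.000457). In knockout retina it had 49 reads, of which 40 came from replicate 2. Egr2 had 0, 18, 0 and 123 reads in control microglia and 1, 0, 0, 165 and 0 in knockout microglia, with 1 and 2 reads in all control and all knockout retina libraries. It was therefore tested in no comparison: 288 of its 307 microglia reads came from replicate 4 of each genotype, and 5 of the 9 microglia libraries had none, where 3 counts set the limit of detection.

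Atf3 and Nr4a1 did not separate the fractions. Nr4a1 (ENSMUSG00000023034, chromosome 15, 101254269 to 101274795, plus strand) had 47.5, 26.4, 25.8 and 46.7 CPM in control microglia and 20, 16.5, 33.0 and 30.7 CPM in control retina (log2 difference 0.50, SE 0.34, adjusted p = 0.275). Atf3 (ENSMUSG00000026628, chromosome 1, 191170296 to 191218039, minus strand) had 67.5, 34.7, 16.3 and 35.5 CPM against 15.9, 33.4, 34.2 and 25.5 CPM (log2 difference 0.45, SE 0.44, adjusted p = 0.451). Both sets of ranges overlap.

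In knockout mice 5 of the 9 genes, Junb, Jun, Fos, Ier2 and Jund, were higher in microglia, where 23.7% of all genes tested were. Fos had a log2 difference of 1.64 (SE 0.30, adjusted p = 0.00132) and Ier2 of 1.34 (SE 0.18, adjusted p = 0.000179). Egr1 had 0.79 (SE 0.33, adjusted p = 0.0738), Atf3 1.05 (SE 0.46, adjusted p = 0.0873), Fosb 3.23 (SE 1.34, adjusted p = 0.0735) and Nr4a1 -0.71 (SE 0.47, adjusted p = 0.237). The count varied with the tool and with single libraries. DESeq2 called 6 of the 9, Fosb as well (adjusted p = 0.0278), and 26.4% of all genes as higher, and Fosb also passed with voom (adjusted p = 0.0178). Without microglia replicate 1 Egr1 and Atf3 passed as well, without retina replicate 2 Egr1 and Fosb, and without microglia replicate 4 Egr1.

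**Figure D2:**
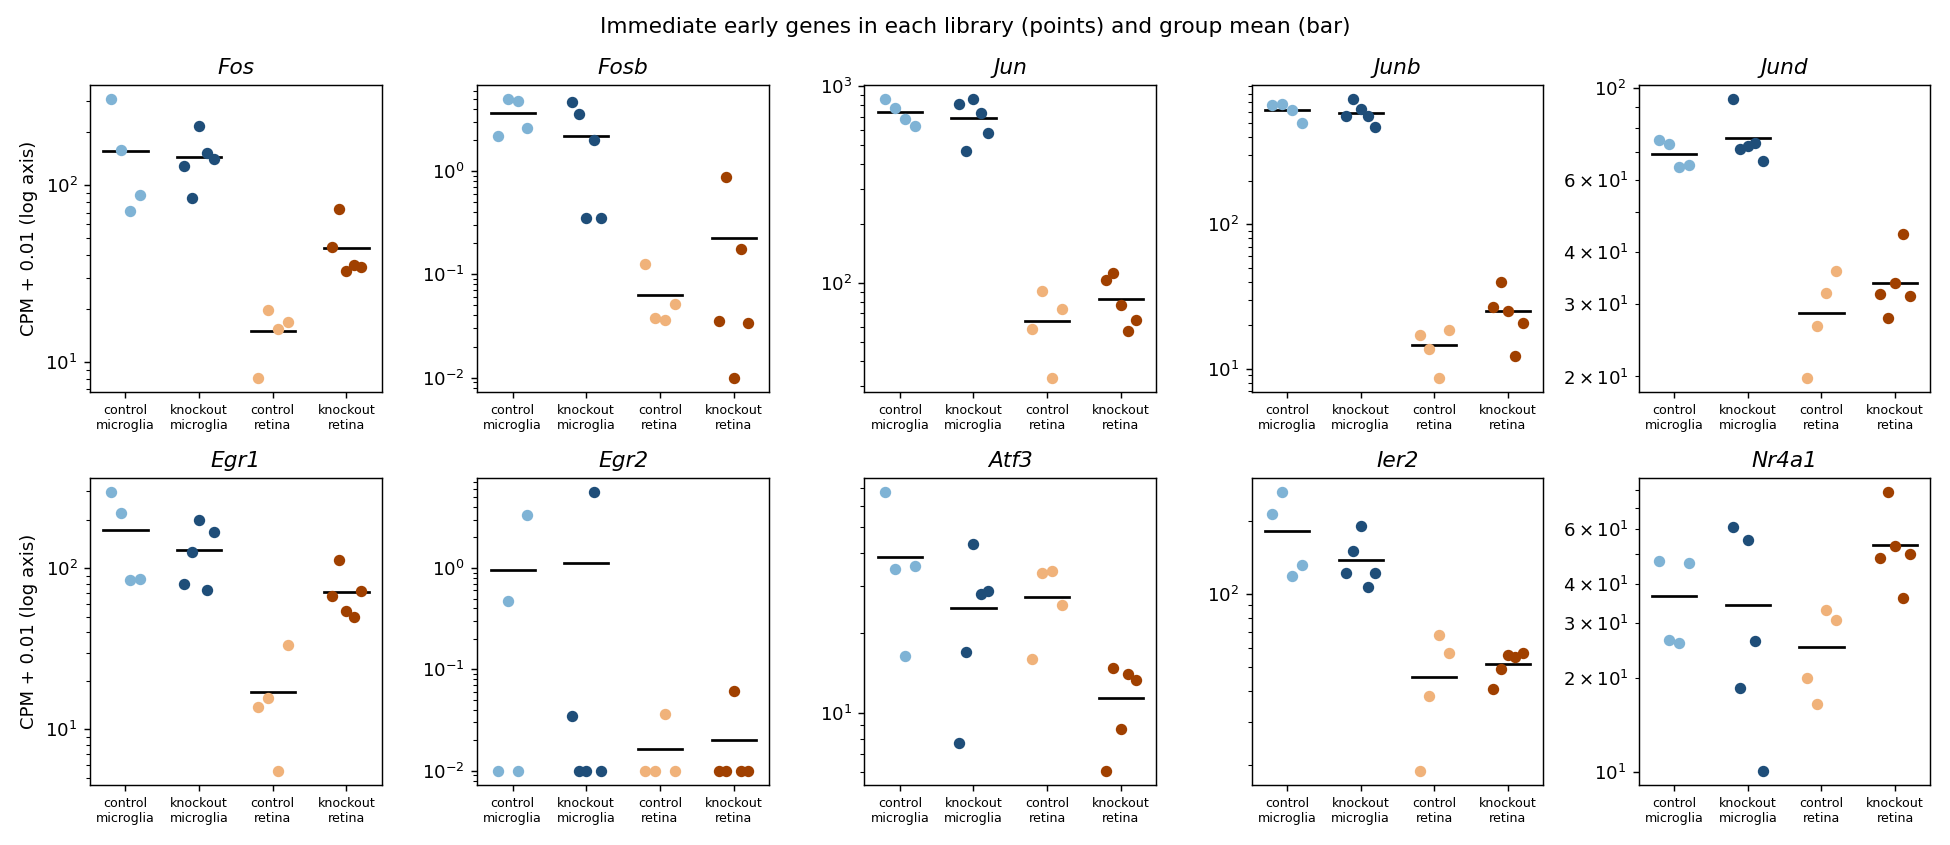
Level of each gene in the 18 libraries, as CPM plus 0.01 on a log axis whose range differs between panels; points are libraries in replicate order and bars are group means. Junb, Jun, Fos, Ier2 and Jund are higher in every microglia library than in every retina library of the same genotype, and in retina the knockout points of Fos, Egr1 and Nr4a1 lie above and those of Atf3 below all control points.

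Levels of different genes were compared as CPM per kilobase of the longest transcript. In control microglia the order of the means was Junb at 342, Jun at 231, Ier2 at 119, Fos at 74.1, Jund at 41.6, Egr1 at 38.4, Atf3 at 19.4, Nr4a1 at 14.3, Fosb at 0.954 and Egr2 at 0.320 CPM per kilobase. The library ranges of neighbours in that order were separate between Junb and Jun, Jun and Ier2, and Nr4a1 and Fosb, and overlapped elsewhere. In control retina the order was different, with Ier2 first at 30, then Jun at 20.1, Jund at 17.1, Atf3 at 13.7, Nr4a1 at 9.82, Junb at 8.00, Fos at 7.08 and Egr1 at 3.82 CPM per kilobase, and the ranges of all these neighbours overlapped. In knockout retina Fos at 20.9 and Egr1 at 15.8 CPM per kilobase stood the third and the sixth by mean, and Atf3, at 5.72, was the lowest of the 8 genes above Fosb and Egr2.

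Within microglia, no gene of the family passed the test between genotypes. At an adjusted p under 0.05, 0 of 9 were called, where 0.115% of all genes tested were, and 0 of 9 had an unadjusted p under 0.05, against 5.76% of all genes; DESeq2 called 0 of 9 as well, and 1.61% of all genes. The median log2 change of the 9 was -0.11, beside -0.01 for all genes. No gene had separate CPM ranges in control and knockout microglia, a pattern shown by 3.3% of all genes.

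The JUN genes gave the narrowest bounds. Junb had a log2 change of -0.06 (SE 0.14), with a 95% interval of the fold from 0.773 to 1.18, and Jund had 0.13 (SE 0.14), with an interval from 0.881 to 1.35. For Jun, with 809, 469.6, 859.9, 732 and 576 CPM in knockouts, the log2 change was -0.09 (SE 0.18) and the interval of the fold ran from 0.706 to 1.24.

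The other genes tested left wider bounds. Fos had 129, 84.7, 218, 153 and 141 CPM in knockout microglia, all inside the control range of 71.4 to 308 CPM, and a log2 change of -0.11 (SE 0.43, interval of the fold 0.476 to 1.81). Egr1 had 79.7, 127, 201, 73.3 and 167 CPM (log2 change -0.41, SE 0.45, fold 0.375 to 1.503), Ier2 had 122, 150.3, 189, 107 and 122 CPM (-0.39, SE 0.26, fold 0.507 to 1.14), and Atf3 had 7.7, 16.9, 43.2, 27.9 and 28.6 CPM (-0.63, SE 0.52, fold 0.289 to 1.44). Nr4a1 ran from 10.04 to 61.0 CPM in knockouts (-0.10, SE 0.51, fold 0.422 to 2.06) and Fosb from 0.341 to 4.62 CPM (-0.73, SE 0.85, fold 0.161 to 2.26). Adjusted p-values of all 9 genes were between 0.990 and 0.999. The authors' deposited table gives an adjusted p of 0.9995 for each of the 9.

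Across the 9 microglia libraries the genes were compared in pairs, 36 in number, and 29 had a positive Pearson correlation of log2 CPM (median 0.27). Egr1 and Ier2 were closest, with r = 0.85 (exact permutation p = 0.00371, two-sided, adjusted over 42 pairs of both fractions p = 0.156) and Spearman's rho = 0.85 (exact permutation p = 0.00607, adjusted p = 0.151). Without the 2 libraries farthest from the median of Egr1, r was 0.76. Fos and Egr1 had r = 0.72 (exact permutation p = 0.0315, adjusted p = 0.229; rho = 0.62, exact permutation p = 0.0857), falling to 0.47 without the 2 farthest libraries. For Fos and Jun r was 0.69 (exact permutation p = 0.0382, adjusted p = 0.229; rho = 0.75, exact permutation p = 0.0255) and 0.78 without them. In all, 5 pairs had an unadjusted p under 0.05 and 0 had an adjusted p under 0.05. Of the 7 pairs with a negative r, 4 held Fosb, among them those with Fos (r = -0.43, rho = -0.45) and Atf3 (r = -0.44, rho = -0.48). The lowest r was that of Jund and Atf3, at -0.46, where rho was 0.05.

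**Figure D3:**
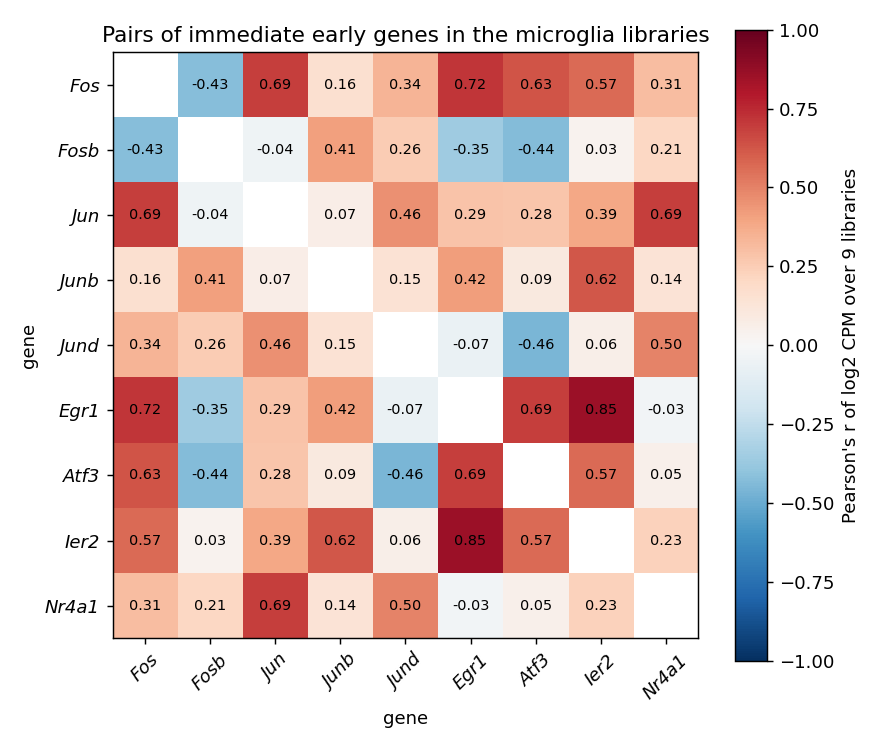
Pearson's r of log2 CPM for each pair of 9 genes over the 9 microglia libraries, 4 control and 5 knockout, with the value in each cell. Egr1 and Ier2 have the highest value, 0.85, and 29 of 36 pairs are above 0.

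In retina the CPM ranges of controls and knockouts were separate for 4 of the 8 genes tested, although none passed the main test. Fos, Egr1 and Nr4a1 were higher and Atf3 lower in every knockout library than in any control library. Separate ranges were seen in 6.02% of all genes tested for higher and in 2.69% for lower levels. With edgeR's adjusted p, 0 of 8 were called (1.66% of all genes), and 4 of 8 had an unadjusted p under 0.05 (14.2% of all genes). With DESeq2 the 4 were called, as were 7.77% of all genes (5.38% higher and 2.39% lower). The median log2 difference of the 8 genes was 0.54, beside 0.00 for all genes.

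Fos had 8.12, 19.5, 15.3 and 16.8 CPM in control retina and 44.7, 73.7, 32.6, 35.3 and 34.3 CPM in knockout retina. The lowest knockout library is clearly above the highest control, and the means were 14.9 ± 4.87 and 44.1 ± 17.2 CPM (SD, n = 4 and 5). The log2 difference was 1.53 (SE 0.34, edgeR adjusted p = 0.0641), a 2.88-fold higher level with a 95% interval from 1.69 to 4.91. DESeq2 gave an adjusted p of 0.000398, and the authors' deposited table gives a log2 fold change of 1.53 with an adjusted p of 0.00282. That table holds a likelihood ratio test, and 5.58% of all its genes had an adjusted p under 0.05.

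Egr1 had 13.8, 15.6, 5.52 and 33.6 CPM in control retina and 67.0, 112, 53.9, 49.8 and 72.6 CPM in knockout retina. Control replicate 4 is the nearest to the knockouts, still below their lowest library. The log2 difference was 2.01 (SE 0.48, edgeR adjusted p = 0.0808), a 4.03-fold higher level with an interval from 1.90 to 8.58, and DESeq2 gave an adjusted p of 0.000372. Without control replicate 4 it passed edgeR's test, with a log2 difference of 2.59 (adjusted p = 0.0262). The authors' deposited table gives 2.00, with an adjusted p of 0.000247.

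Nr4a1, an activity-regulated receptor, had 20, 16.5, 33.0 and 30.7 CPM in control retina and 48.4, 78.9, 53.1, 36.1 and 49.9 CPM in knockout retina. The gap between the groups is small, from 33.0 to 36.1 CPM, and the log2 difference was 1.05 (SE 0.29, edgeR adjusted p = 0.110), with DESeq2 at an adjusted p of 0.00836. The authors' deposited table gives 1.05 with an adjusted p of 0.0276. Atf3 went the other way, with 15.9, 33.4, 34.2 and 25.5 CPM in control libraries and 6.05, 14.8, 8.67, 14.0 and 13.3 CPM in knockout libraries. Its groups are also only just separate, at 15.9 and 14.8 CPM, and the log2 difference was -1.30 (SE 0.35, edgeR adjusted p = 0.103; DESeq2 adjusted p = 0.0108), with an adjusted p of 0.0742 in the authors' deposited table. Fos and Egr1 thus differed in the opposite direction to Atf3 in the same libraries. Knockout replicate 2 had the highest Fos, Egr1, Nr4a1 and Atf3 of its group.

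The JUN genes and Ier2 overlapped between genotypes in retina. Junb had a log2 difference of 0.75 (SE 0.37, adjusted p = 0.424), Jun 0.33 (SE 0.31, adjusted p = 0.744), Jund 0.20 (SE 0.22, adjusted p = 0.800) and Ier2 0.14 (SE 0.32, adjusted p = 0.923). Their 95% intervals of the fold ran from 0.939 to 3.01 for Junb, 0.777 to 2.04 for Jun, 0.815 to 1.62 for Jund and 0.667 to 1.82 for Ier2. Among these 4 genes, Jun and Junb had r = 0.82 over the 9 retina libraries (exact permutation p = 0.00753, adjusted p = 0.158; rho = 0.82, exact permutation p = 0.0108), which was 0.47 without the 2 libraries farthest from the median of Jun, and Jund and Ier2 had r = 0.80 (exact permutation p = 0.0142, adjusted p = 0.199; rho = 0.67). No correlation over both genotypes is given for Fos, Egr1, Nr4a1 and Atf3, whose libraries fall into separate genotype groups of fewer than 6.

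**Figure D4:**
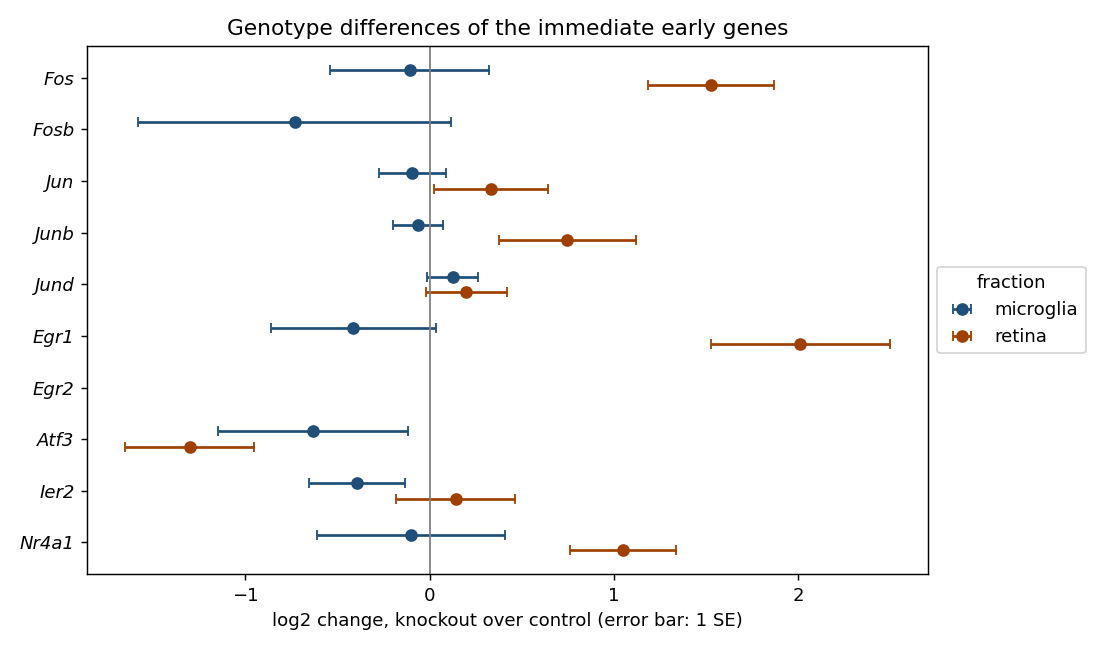
Log2 difference of knockout over control for each gene in microglia (blue) and retina (orange), from edgeR, with bars of 1 SE; 4 control and 5 knockout libraries per fraction. In retina Egr1 (2.01), Fos (1.53) and Nr4a1 (1.05) lie to the right and Atf3 (-1.30) to the left, the microglia values lie between -0.73 and 0.13, and genes without a point were not tested.

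Markers of retinal cell types also differed between the genotypes in the retina libraries. Of 14 rod genes, 14 had a lower level in knockouts and 6 passed the test (Cnga1, Rcvrn, Pdc, Pde6g, Gngt1 and Sag). The rod sum was 170831 to 251366 CPM in controls and 136005 to 168009 CPM in knockouts, with no overlap. Of 10 cone genes 10 were higher in knockouts and 4 passed the test (Gnb3, Opn1sw, Gnat2 and Pde6c). Of 11 bipolar cell genes 10 were higher and 6 passed (Cabp5, Car8, Isl1, Trpm1, Vsx1 and Lrtm1). The cone sum was 797 to 1838 CPM in controls and 2708 to 6486 CPM in knockouts, and the bipolar cell sum 421 to 910.1 CPM and 1486 to 2747 CPM. Müller glia, which themselves express immediate early genes when stimulated, were at 2259 to 4890 and 3948 to 7031 CPM, with 11 of 11 tested genes higher in knockouts and 0 called. Endothelial and pericyte genes summed to 135 to 234 and 233 to 544 CPM with Tie1 called, and amacrine and horizontal cell genes to 75.3 to 199 and 254 to 372 CPM with Slc6a9 called. The monocyte, border macrophage and granulocyte genes summed to 3.02 to 9.22 CPM in controls and 22.0 to 25.8 CPM in knockouts, with 11 and 10 of 18 at 0 in every library, among them Cd163 and F13a1. Most of that gap was Lyve1, at 0 to 4.84 and 15.9 to 18.6 CPM (log2 difference 2.89, adjusted p = 0.451), and the other 17 summed to 3.02 to 4.38 and 4.12 to 8.74 CPM. The microglial genes were at 14.1 to 25.4 and 8.21 to 22.4 CPM. When the mean level of the rod genes entered the fit as a covariate, the log2 differences were 2.19 for Fos, 1.65 for Egr1, 0.78 for Nr4a1 and -0.77 for Atf3, each with an edgeR adjusted p of 0.9996, and with each library's number of detected genes as the covariate those of Fos and Egr1 were 1.86 and 1.38 (adjusted p = 0.446 and 0.651). As the rod sum and the number of genes both separate the genotypes, their part and that of the genotype cannot be told apart.

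The genotype difference was then compared between the fractions in 1 fit over all 18 libraries. For 8 of 9 genes it was lower in microglia than in retina, with a median of -0.85 (all genes -0.13), and 0 of 9 passed the test, where 0.469% of all genes did. The value was -2.46 for Egr1 (SE 0.70, adjusted p = 0.138), -1.67 for Fos (SE 0.58, adjusted p = 0.227), -1.18 for Nr4a1 (SE 0.62, adjusted p = 0.465), -0.85 for Junb (SE 0.38, adjusted p = 0.372) and 0.63 for Atf3 (SE 0.66, adjusted p = 0.827). Of the 9, 3 had an unadjusted p under 0.05, against 12.5% of all genes. Fosb, 1 of the 8 with a lower value, passed the filter on reads only through its microglia libraries. With DESeq2 Egr1 was called (adjusted p = 0.0124), as were 6% of all genes. A difference in the genotype effect between fractions was thus not shown with edgeR for any of these genes.

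Other genes of the same response were read from a list of 43 immediate early genes. In retina 33 were tested and 0 called, 28 of 33 were higher in knockouts, and the median log2 difference was 0.48, beside 0.00 for all genes. Gem, which encodes a small GTP-binding protein, had 2.83 ± 3.54 CPM in controls and 35.1 ± 8.76 CPM in knockouts (SD, n = 4 and 5; log2 difference 3.57, SE 1.16, edgeR adjusted p = 0.173). Ier3, a stress-response gene, was lower, at 64.2 ± 11.7 and 36.2 ± 8.19 CPM (log2 difference -0.86, edgeR adjusted p = 0.0782), Btg1, an antiproliferative gene, was at 96.4 and 123 CPM (0.32, adjusted p = 0.183), and Ccn2, a matricellular protein gene, at 14.2 and 32.7 CPM (1.16, adjusted p = 0.208). DESeq2 called 3 of the 33, Gem (adjusted p = 0.00674), Ier3 (0.00511) and Btg1 (0.0132), where it called 7.77% of all genes. In microglia 35 were tested, 0 were called and 18 were higher, with a median of 0.05. The smallest p-values there belonged to Csrnp1 (log2 change 0.69, adjusted p = 0.824) and Dusp5, a MAP kinase phosphatase gene (1.07, adjusted p = 0.928).

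Partners and inputs of the family showed no call by edgeR in either fraction. Of 15 partners and repressors, 15 were tested in microglia, where Atf5 had means of 0.245 CPM (controls) and 1.56 CPM (knockouts), a log2 change of 2.66 (SE 0.54, adjusted p = 0.162; DESeq2 adjusted p = 0.00556). In retina 12 were tested, with a median of -0.13. There Atf4, the factor of the integrated stress response, was at 99.3 and 72.5 CPM (log2 difference -0.49, adjusted p = 0.157) and Jdp2, an AP-1 repressor gene, at 1.70 and 10.9 CPM (2.63, adjusted p = 0.446). Of 27 serum response factor, CREB and MAP kinase genes, all tested in both fractions, the median was -0.01 in microglia and 0.07 in retina. The smallest p was that of Srf in microglia, at 11.1 and 24.9 CPM (log2 change 1.17, adjusted p = 0.777), and of the CREB coactivator gene Crtc1 in retina, at 45.3 and 84.2 CPM (0.85, adjusted p = 0.364).

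Genes outside AP-1 that are known to respond when microglia are dissociated, such as heat shock and chemokine genes, formed a list of 24. They summed to 3127 to 3677 CPM in control and 2814 to 3427 CPM in knockout microglia, and to 3361 to 3939 and 3330 to 3744 CPM in control and knockout retina, with overlapping ranges in both fractions. A large part of the microglia sums was Hspa8, with means of 1582 CPM in controls and 1428 CPM in knockouts. In retina Ccl3, Ccl4, Cxcl2, Il1b and Rgs1 were at 0 in every library. The sums thus describe mainly the abundant heat shock genes. Of 22 tested in microglia 7 were higher in knockouts (median -0.16) and 0 were called. The smallest p-values were those of the chaperonin gene Hspd1 (log2 change -0.53, adjusted p = 0.775), of Tnf, at 5.18 and 12.3 CPM (1.25, adjusted p = 0.847), and of the co-chaperone gene Dnajb1 (-0.36, adjusted p = 0.854). In retina 17 were tested, 10 were higher in knockouts (median 0.07) and 0 were called. Hsp90aa1, the inducible cytosolic HSP90, was at 1199 and 855 CPM (log2 difference -0.53, adjusted p = 0.129). The co-chaperonin gene Hspe1 was at 28.2 and 20.7 CPM (-0.49, adjusted p = 0.234) and the metallothionein gene Mt1 at 10.8 and 25.1 CPM (1.17, adjusted p = 0.238). DESeq2 called Hsp90aa1 and Hspe1, and 7.77% of all genes.

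The genes most like the family were those whose log2 CPM followed the mean of the 10 genes, each centred, over the 9 libraries of a fraction, among genes whose mean reached 10 CPM. In retina they were Syngr3, a synaptic vesicle gene (Pearson's r = 0.97), Zfp507 (0.93), Flot1 (0.93), Ccm2 (0.92) and Nsdhl, a cholesterol synthesis gene (0.92), of 8080 genes ranked. Syngr3 ran from 16.2 to 35.2 CPM in controls and from 35.3 to 90.3 CPM in knockouts. In microglia they were Ncoa1, a nuclear receptor coactivator gene (0.91), Fbxl6 (0.89), Rhbdd2 (0.87), Neo1 (0.86) and Usp5 (0.86), of 8273 ranked. Without the scarce Egr2 and Fosb, Syngr3, Ccm2 and Nsdhl remained among the first 5 in retina, and in microglia none did, Rasa3 (0.96) and Fto (0.95) coming first. These correlations describe 9 libraries that share a fraction and its genotype groups, and were not tested. In retina the centred mean of the 10 genes itself separated the genotypes, reaching -0.022 in controls and starting at 0.085 in knockouts. Likeness to that mean and a genotype difference cannot be told apart there.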

How the data were processed

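RNA was taken from flow-sorted cells, amplified with a SMARTer Ultra Low kit and sequenced as paired reads of 150 bases, per the labels' protocols. Amplified reads are not independent molecules. The authors deposited whole-number counts per gene. DRAGEN, STAR 2.7.9a, Subread, featureCounts, edgeR, limma and GRCm38 are named, without a role, per the submitters' processing notes; strand and annotation are not given in the sources used here. The authors' deposited tables of the 2 genotype comparisons hold, per the file headers, a log2 fold change, a log2 mean level, the score of a likelihood ratio test and raw and adjusted p-values for each gene.

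Of 55774 lines, 287 repeated an identifier and were dropped, and 55141 of the 55487 genes kept were found in GENCODE M21, which gave positions and lengths on GRCm38. Counts were tested with edgeR 4.0.16 in R 4.3.3 (filterByExpr by group, TMM, quasi-likelihood test, Benjamini-Hochberg over all genes tested). SEs were computed from the log2 change and the root of F, and 95% intervals from them with Student's t at the degrees of freedom of the test. Printed CPM use 1 TMM scaling over 18 libraries. Log2 CPM in pairs had a prior count of 2. Scripts were tested on simulated data. Alternatives were DESeq2 1.42.0, its size factors, voom of limma 3.58.1 with quality weights, other filters, covariates, a replicate block, a fit over all 18 libraries, transcript lengths from the union of exons, a prior count of 0.5, and leaving out each library. Added after seeing the data were the block without control replicate 1, scaling to total counts, and likeness without Egr2 and Fosb.

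The 10 genes and all lists were chosen with earlier results of these data known. Named beside them are list genes past the threshold in a genotype comparison, otherwise up to 4 with the smallest p, and the 5 most alike in each fraction. Same-numbered libraries were not taken as pairs, as the labels do not say that they are. 1 gene of the bipolar cell list is not reported here and was left out of its counts and sums.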

Additional observations from a re-analysis of the deposited data

Results flagged for a closer look

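In 4 of 38 groups of 4 or 5 libraries, 1 library of a gene stood apart by Dixon's test at the 95% level, which chance does in about 1 group in 20. Egr2 in retina is left out of that count, since any read in a single library sets it apart. Jund had 94.26 CPM in knockout microglia replicate 1, where the next highest library had 73.8 CPM. Egr2 had 3.33 CPM in control and 5.588 CPM in knockout microglia, each in replicate 4, against at most 0.465 CPM in the other microglia libraries. Fosb had 0.8612 CPM in knockout retina replicate 2, against at most 0.167 CPM in the others of its group. Egr2 in retina had 1 and 2 reads, as 0.02605 CPM in control and 0.05099 CPM in knockout retina, each in replicate 3, where the other libraries had 0.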

How the results depend on the processing

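Of 809 values of 44 gene and comparison pairs under the alternatives, 770 kept their sign and side of the threshold, 14 passed it only there, 4 lost it and 21 changed sign. In retina DESeq2 called 4 of the genes where edgeR called 0, and without a library 0 to 1, the 1 being Egr1 without control replicate 4; in the comparison of genotype effects DESeq2 called 1, Egr1. The cause of these differences between tools was not tested. Over all genes, calls in microglia were 17, and 237 with DESeq2, 46 with voom, 8 without a filter and 32 in the fit over all libraries; in retina 255, and 1184 with DESeq2 and 120 without a filter. Between genotype effects there were 85, 1074 with DESeq2 and 128 with voom. Leaving out 1 library gave 4 to 21 calls in microglia (fewest without control replicate 3), 96 to 342 in retina (without knockout replicate 3 and control replicate 4) and 51 to 143 between genotype effects (without control microglia replicate 3 and control retina replicate 4). With the rod gene level or the number of detected genes as a covariate, 11 and 5 genes were called in microglia and 0 and 2 in retina.

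Same-numbered libraries had correlations of deviations of -0.11 to 0.09 over 17 pairs, and 5 of 17 samples correlated best with their own number. Between the fractions these were 2 of 4 in controls and 2 of 5 in knockouts. Between the genotypes they were 0 of 4 in microglia and 1 of 4 in retina. Different cell fractions of 1 animal need not deviate alike, so these values cannot decide whether same-numbered libraries share an animal. The numbers were not taken as pairs, as the labels do not say that they are. In control replicate 1, Xist was at 42.0 CPM in the microglia and 0.0766 CPM in the retina library, and Ddx3y was at 0 CPM in both. With the replicate number as a block, 0 of the genes were called in either genotype comparison or between genotype effects, 6 in controls (Ier2 lost, adjusted p = 0.0537) and 6 in knockouts (Fosb gained, adjusted p = 0.0248). Over all genes, in either direction, the block left 4436 calls between the fractions in controls (6100 without it) and 6350 in knockouts (6825 without it). It left 2 calls between genotypes in microglia, 0 in retina and 9 between genotype effects. Signs changed with the block for Fos (0.055), Junb (0.0075) and Nr4a1 (0.026) in microglia. With the block and without control replicate 1, 4 genes of the family (2457 of all genes, against 6100) were called in controls and 0 between genotype effects (3 of all genes), and the value of Atf3 in controls became -0.21 and that of Jund between genotype effects 0.082.

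The other sign changes were in microglia those of Fos with voom (0.18) and of Fos (0.050), Fosb (0.35), Junb (0.023) and Egr1 (0.091) with the number of detected genes as a covariate, and in retina that of Jund with the rod level (-0.065). Leaving out 1 library, the microglia values ran from -0.35 to 0.46 for Fos, -0.19 to 0.019 for Jun, -0.15 to 0.0048 for Junb and -0.41 to 0.14 for Nr4a1, the retina value of Ier2 from -0.10 to 0.41, and the difference of genotype effects of Jund from -0.25 to 0.021. None of these values passed the threshold. Total-count scaling kept the count of 4 genes with separate ranges in retina, all 10 genes kept their rank by level in control microglia with lengths from the union of exons, and 0 pairs passed with a prior count of 0.5.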
